A study of Mus musculus with 105 samples.

Results

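Interferon response genes are the genes that a cell turns on when type I interferon binds its receptor. The 36 mouse genes described here were taken from a set list of symbols, each was found in the messenger RNA table (36 of 54532 gene identifiers), and they were grouped by role: 6 sensors of foreign nucleic acid, 3 transcription factors, 4 OAS genes, 3 IFIT genes, 4 genes of the ISG15 system, 6 other antiviral effectors, 2 PARP genes, 3 genes of antigen processing and 5 further genes. The series has 105 samples and was built to follow microRNA production and decay by labelling RNA with 5-ethynyluridine (5EU), and 6 of its samples are poly(A) RNA libraries, 2 for each of 3 cell lines. CIMEF are mouse embryonic fibroblasts (strain label C57BL/6J) grown in DMEM with 10% FBS until they stopped dividing on contact and then kept in that state for 5 days. DMEF are the dividing fibroblasts of the same strain label and medium, and ESC are v6.5 embryonic stem cells (strain label C57BL/6) grown in DMEM/F12 with LIF, the inhibitors CHIR99021 and PD0325901, N2, B27, BSA, BME, GlutaMAX, MEM NEAA and Pen/Strep. The labels give every line passages 5 to 15, name no genetic change and give no treatment time for the RNA libraries, and whether these cells received 5EU is not given in the sources used here. No source says that 2 libraries of a line came from separate cultures, so p-values measure the spread between libraries, which may be technical. Cell type, medium and strain label differ together between ESC and the fibroblasts and cannot be told apart.

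In this pathway RNA sensors such as RIG-I (Rigi) and MDA5 (Ifih1) detect viral RNA and lead to secretion of interferon beta, which binds the receptor Ifnar1/Ifnar2 on the same or neighbouring cells. The kinases Jak1 and Tyk2 then act through a complex of Stat2 and Irf9 that binds the interferon-stimulated response element (ISRE) in promoters of effector genes. Many of these genes also keep a low level without any virus, and embryonic stem cells are known for a weak interferon response.

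Promoter sequence is shown first, because the ISRE is the element that many of these genes share. RefSeq (GRCm38.p6) held promoter windows, 250 bases before to 50 bases after a gene's start, for 27 of the 36 genes. The core of the ISRE, GAAA and GAAA with any 2 bases between them, was searched on both strands, and matches may overlap. It occurred in the windows of 11 of these 27 genes (40.7%), against 1079 of 27025 genes with a window (3.99%) and 3.44% of all windows. The other element searched, TTCNNNGAA, the interferon gamma-activated sequence, was in the windows of 6 of the 27 genes, against 2582 of 27025 genes with a window (9.55%). The 4 windows that follow hold the ISRE letters (in capitals, in either orientation) and belong to genes whose changes are described below.
Ifit3: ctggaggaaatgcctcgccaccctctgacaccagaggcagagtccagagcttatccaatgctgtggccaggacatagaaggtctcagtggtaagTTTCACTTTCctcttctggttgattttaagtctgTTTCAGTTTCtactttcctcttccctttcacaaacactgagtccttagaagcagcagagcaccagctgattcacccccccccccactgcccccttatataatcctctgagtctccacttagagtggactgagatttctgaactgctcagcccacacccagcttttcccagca
Ifit1: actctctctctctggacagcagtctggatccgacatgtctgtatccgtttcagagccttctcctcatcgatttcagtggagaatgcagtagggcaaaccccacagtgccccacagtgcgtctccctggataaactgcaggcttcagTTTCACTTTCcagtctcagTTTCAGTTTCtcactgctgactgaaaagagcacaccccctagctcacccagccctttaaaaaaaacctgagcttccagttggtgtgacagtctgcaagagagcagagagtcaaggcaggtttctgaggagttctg
Ddx60: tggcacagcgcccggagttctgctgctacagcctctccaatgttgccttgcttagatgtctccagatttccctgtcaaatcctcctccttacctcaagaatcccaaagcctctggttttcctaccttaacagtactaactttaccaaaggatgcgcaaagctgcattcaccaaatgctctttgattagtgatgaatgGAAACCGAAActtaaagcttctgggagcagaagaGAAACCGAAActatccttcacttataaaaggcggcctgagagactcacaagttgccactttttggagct
Rigi: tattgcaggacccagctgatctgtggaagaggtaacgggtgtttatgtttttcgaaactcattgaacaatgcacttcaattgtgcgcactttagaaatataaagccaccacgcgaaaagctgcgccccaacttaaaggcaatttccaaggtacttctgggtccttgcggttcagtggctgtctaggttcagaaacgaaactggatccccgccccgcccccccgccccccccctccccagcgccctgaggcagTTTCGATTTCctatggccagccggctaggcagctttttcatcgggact
Ifit3 (chr19:34583279-34583578, plus strand) had a match at 156 and another at 122 bases before the start, and Ifit1 (chr19:34640639-34640938, plus strand) at 104 and 85 bases before it. Ddx60 (chr8:61927837-61928136, plus strand) had its matches at 53 and 19 bases before the start. The single match of Rigi (chr4:40239776-40240075, minus strand) began 2 bases after the start. Isg15 had 3 overlapping matches, at 78, 72 and 66 bases before its start, Bst2 and Oas1a had 2 each, and Eif2ak2, Ifih1, Rsad2 and Stat2 had 1 each.

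A pair of genes with large changes had no such match and are shown for contrast, in lower case throughout.
Psmb9: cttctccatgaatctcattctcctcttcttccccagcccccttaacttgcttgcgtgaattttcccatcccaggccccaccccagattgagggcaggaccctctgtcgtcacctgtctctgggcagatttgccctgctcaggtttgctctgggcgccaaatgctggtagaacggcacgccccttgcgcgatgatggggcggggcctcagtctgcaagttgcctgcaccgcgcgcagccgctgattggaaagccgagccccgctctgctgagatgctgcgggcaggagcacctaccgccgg
Oasl2: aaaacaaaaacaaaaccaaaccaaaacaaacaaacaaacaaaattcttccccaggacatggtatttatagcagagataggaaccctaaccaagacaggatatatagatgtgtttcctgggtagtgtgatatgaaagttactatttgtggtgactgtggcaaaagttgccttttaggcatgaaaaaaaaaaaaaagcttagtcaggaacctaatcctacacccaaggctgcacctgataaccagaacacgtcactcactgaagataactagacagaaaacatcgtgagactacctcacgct
The Psmb9 window (chr17:34187281-34187580, minus strand) overlaps that of Tap1 on the opposite strand (chr17:34187306-34187605), so this pair of genes is read outward from a shared region. The Oasl2 window lies at chr5:114896684-114896983 on the plus strand. Of the 11 genes with the motif 6 were higher in CIMEF than in DMEF by the test given below. Of the 16 with a window but without it 10 were, and 1 of the 16, Cmpk2, was not tested. Of all genes tested 19.5% were higher. A match says only that the letters are there.

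The libraries held 23030907 to 34093791 counts, and levels are given as CPM, counts per 1000000 of the library total after TMM scaling. Fibroblast markers (12 genes) summed to 35311 to 40010 CPM in the 4 fibroblast libraries and to 2656 and 2698 CPM in ESC, and stem cell markers (12 genes) to 5077 and 5152 CPM in ESC and 55.6 to 62.3 CPM in fibroblasts. By these sums each line carried the markers of its label, though Fbln1 was higher in ESC than in DMEF (log2 0.41). A low level of the other type's genes was present in every library. For 6 of the 12 fibroblast genes, Col1a1, Col1a2, Col3a1, Col5a1, Lox and Pdgfrb, the ESC level was 1.10% to 2.64% of the fibroblast mean. These 6 are a choice from the list, and their range does not cover all 12. Not all other fibroblast markers were so low in ESC. Fn1 stood there at 1737 and 1717 CPM, beside means of 7175 CPM in CIMEF and 13371 CPM in DMEF. Vim stood at 519 and 525 CPM, beside 2169 and 5173 CPM, while Pdgfra stood at 2.32 and 2.79 CPM. Fbln1 stood in ESC at 79.0 and 77.8 CPM, beside means of 234 CPM in CIMEF and 59.1 CPM in DMEF. Thy1 stood at 3.06 and 3.69 CPM, beside 18.7 and 113 CPM, and S100a4 at 0.740 and 1.08 CPM, beside 42.1 and 85.9 CPM. The 12 stem cell genes stood in fibroblasts at a median of 0.859% of their ESC mean, from 0.200% to 20.3% (Klf2). The lowest line of 20 of the 36 genes stood below 5% of its highest line, a limit above the range of those 6 fibroblast genes. Among the 20, Oas2 (2.89%), Xaf1 (3.24%), Oasl2 (3.80%) and Cmpk2 (4.02%) lay above that range. In Zbp1, Oas1a, Oas2, Cmpk2 and Xaf1 the lowest line was a fibroblast line and the highest ESC. For them the range to compare is that of the stem cell genes in fibroblasts, 0.200% to 20.3%. In Oasl2, Psmb9 and Mx1 both lines were fibroblasts, to which a level of the other type's genes does not apply. The source of the low counts of the other type's genes was not tested.

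**Figure D1:**
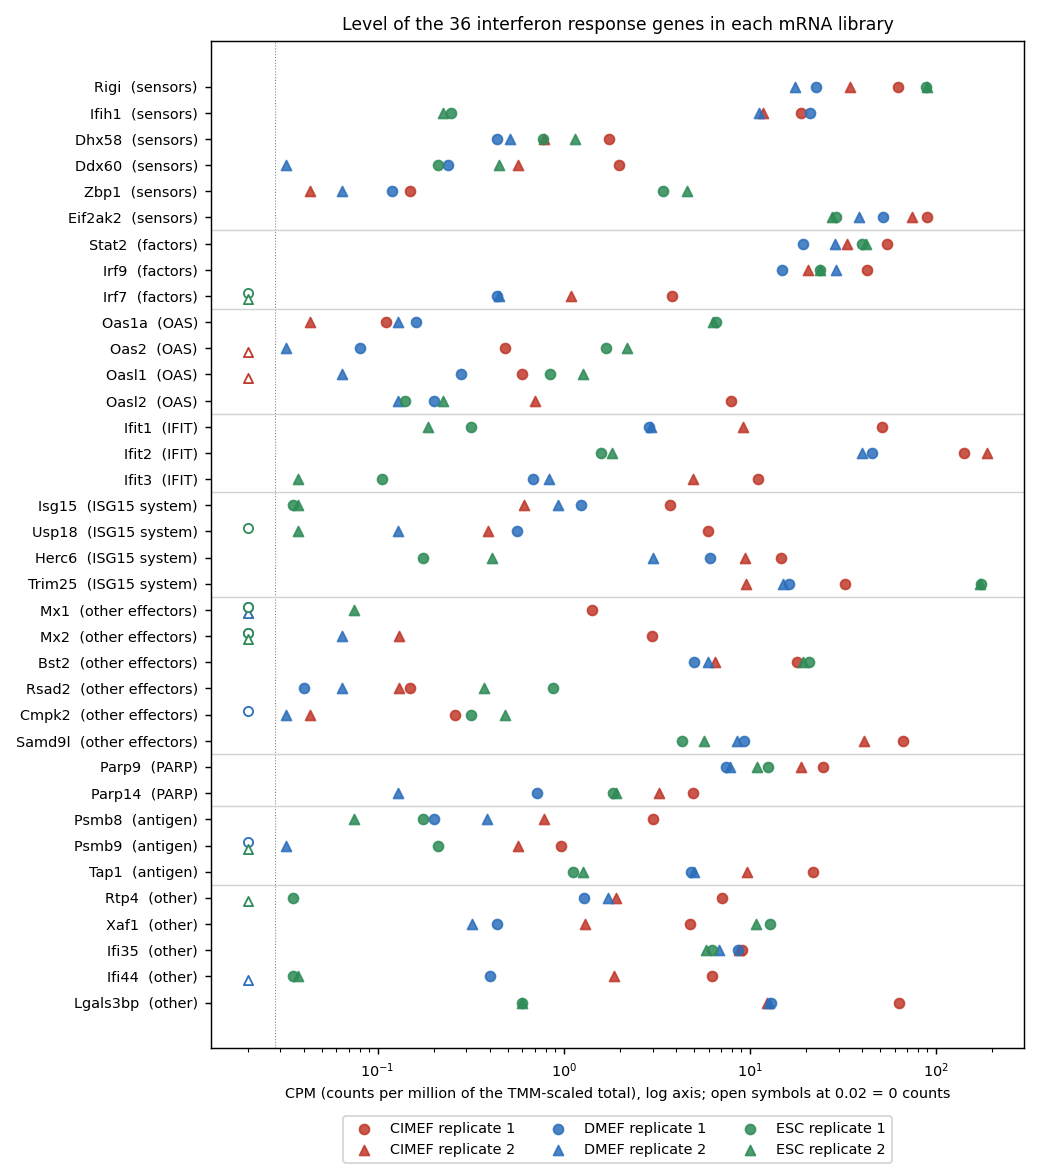
Level of each of the 36 genes (rows, grouped by role) in the 6 libraries, in CPM on a log axis; circles are replicate 1, triangles replicate 2, and open symbols at the left edge mark 0 counts. The red circle (CIMEF replicate 1) lies to the right of the red triangle for 35 of the 36 genes, while ESC are the highest line for some genes (Trim25, Oas1a, Zbp1) and the lowest for others (Ifit1, Ifih1, Irf7).

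One library stood apart on these genes. In CIMEF replicate 1 the 36 genes summed to 781 CPM, against 507 CPM in CIMEF replicate 2, 256 and 239 CPM in DMEF and 434 and 433 CPM in ESC. The order of CIMEF replicate 2 and ESC rested on single genes. Without Ifit2 the sums were 639 and 318 CPM in CIMEF, 210 and 199 CPM in DMEF, and 432 and 431 CPM in ESC. In the ESC sums Trim25 gave 174 and 173 CPM and Rigi 88.7 and 89.9 CPM. Of the 36 genes, 35 were higher in CIMEF replicate 1 than in replicate 2. It was above all 5 other libraries for 24 of them, against 20.4% of the genes tested. By more than 2-fold on log2(CPM + 0.5), 19 of 36 were higher, against 5.47% of the 18094 genes tested, and 0 were lower, against 2.65%. The median log2 difference between these 2 libraries was 1.07 over the 36 genes and 0.041 over all genes tested. On log2(CPM + 0.5) no member passed 2-fold in either direction between the 2 DMEF libraries or between the 2 ESC libraries. Of all genes tested, 1.28% and 0.0829% were higher there and 0.238% and 0.00553% lower. The added 0.5 damps the ratios of genes at low CPM in every line. On plain CPM, Parp14 (0.721 and 0.129) and Herc6 (6.12 and 3.03), among others, differed by more than 2-fold between the DMEF libraries. Between the ESC libraries Rsad2 (0.881 and 0.372), among others, did so.

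The ratios between the 2 CIMEF libraries ran from over 10 to below 1. Usp18, the protease that removes ISG15 and damps receptor signalling, had 160 counts in CIMEF replicate 1 and 9 in replicate 2, a ratio of depth-scaled counts of 15.2 (95% counting interval 7.80 to 33.8). Mx2, a dynamin-like GTPase, had 80 and 3 counts, a ratio of 22.8 (7.52 to 113), and its paralogue Mx1, which C57BL/6 mice carry in a defective form, had 38 and 0 counts, at least 10.8-fold higher when 0 is read as 3 counts. Oasl2 differed 11.4-fold (6.87 to 20.3), Isg15 6.10-fold (3.47 to 11.6), Ifit1 5.64-fold (4.87 to 6.55), Lgals3bp 5.12-fold (4.51 to 5.82) and Trim25 3.42-fold (2.94 to 3.98). These intervals cover counting error only. At the other end stood Ifi35 (1.03-fold, 0.853 to 1.25), Eif2ak2 (1.20-fold, 1.13 to 1.28) and Parp9 (1.32-fold, 1.17 to 1.49). Ifit2 was the exception, at 142 CPM in replicate 1 and 189 CPM in replicate 2, a ratio of 0.751 (0.719 to 0.785). Ifit1 and Ifit3, its neighbours on chromosome 19, went the other way.

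Markers of other cells were compared between the same libraries. The 12 macrophage genes summed to 3.87 CPM in CIMEF replicate 1, 2.61 CPM in replicate 2, and 3.16 and 4.15 CPM in DMEF, with Adgre1, Tyrobp and Cx3cr1 at 0 in all 6 libraries. The 8 lymphoid and dendritic markers summed to 0.223 and 0.0435 CPM. The stem cell markers summed to 56.8 and 59.0 CPM. Among the fibroblasts' own markers Pdgfra stood at 149 CPM in replicate 1 and 506 CPM in replicate 2, and Thy1 at 36.2 and 1.18 CPM. The 7 epithelial markers summed to 26.3 and 9.27 CPM, of which Cdh1, a cadherin also made by stem cells, gave 25.1 and 8.66 CPM, while Epcam stood at 0.297 and 0.348 CPM. The 8 endothelial markers summed to 6.69 and 8.71 CPM and the 6 muscle markers to 1.12 and 0.522 CPM. The part of these differences in the interferon genes was not tested. In bulk libraries a larger share of responding cells and more RNA per cell cannot be told apart.

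**Figure D2:**
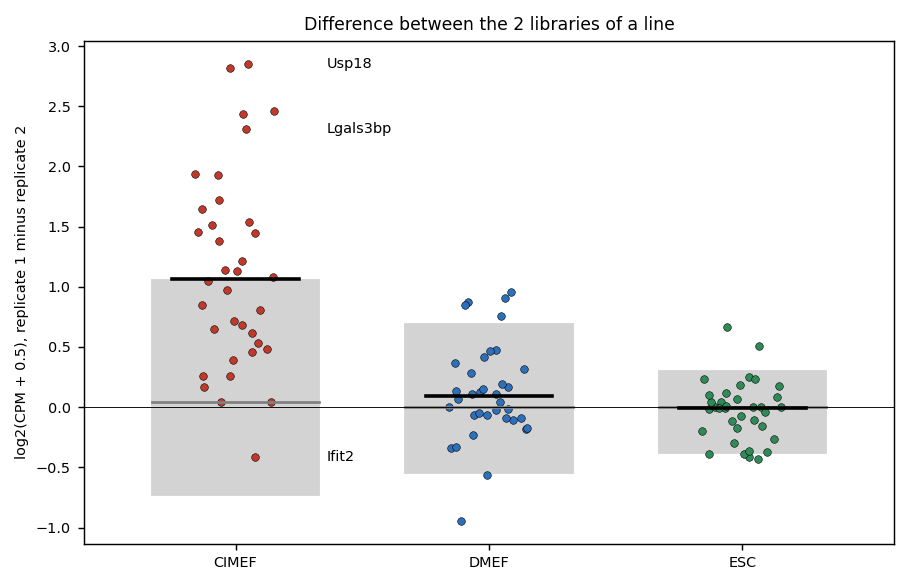
Difference between the 2 libraries of each line in log2(CPM + 0.5), replicate 1 minus replicate 2; points are the 36 genes, black lines their medians, grey boxes the 5th to 95th percentile of all genes tested and grey lines the median of those genes. The CIMEF points have a median of 1.07, while those of DMEF and ESC all lie within 1 of 0.

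Contact-inhibited and dividing fibroblasts were compared first. Of the 36 genes, 33 passed the filter on low counts (Mx1, Mx2 and Cmpk2 did not) and entered edgeR's quasi-likelihood test, which was fitted to all 6 libraries and 18094 genes. At a Benjamini-Hochberg adjusted p below 0.05, 18 were higher in CIMEF, where 19.5% of all genes tested were, and 0 were lower, where 21.1% were. At an unadjusted p below 0.05, 23 of the 33 differed, and DESeq2 gave 22 higher (19.0% of the genes to which it gave an adjusted p) and 0 lower (16.5%). Members with few counts outside CIMEF (Psmb8, Psmb9, Oasl2, Ifi44, Ddx60 and Irf7) passed the filter through the line in which they were called higher. The median log2 difference of the members tested was 1.56, against 0 for all genes tested. Over all 36 genes, CIMEF replicate 1 was above both DMEF libraries for 34, against 43.2% of the genes tested, and both CIMEF libraries were above both DMEF libraries for 25, against 33.1%. The converse held for 1, Oas1a, against 36.2%.

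The count of calls depended on single libraries. Without CIMEF replicate 1, 13 of the 18 still passed (20.3% of all genes were higher in that fit), Ddx60, Herc6, Irf7, Psmb8 and Stat2 did not, and Trim25 became lower (log2 -0.65, edgeR adjusted p = 0.0153, with 19.3% of all genes lower). CIMEF replicate 2 alone was above both DMEF libraries for 25 of the 36 genes, against 40.2% of all genes tested. Without CIMEF replicate 2, 30 members passed (22.5% of all genes). Without DMEF replicate 1, 8 passed (13.8%), with Ddx60, Herc6, Ifit1, Irf7, Oasl2, Psmb8, Psmb9, Stat2, Tap1 and Xaf1 lost. Without DMEF replicate 2, 6 passed (8.27%), with those 10 and Ifi44 and Rigi lost. Herc6 and Stat2 also lost the call without either ESC library. The 6 genes that passed in every one of these fits were Eif2ak2, Ifit2, Ifit3, Samd9l, Parp9 and Parp14.

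**Figure D3:**
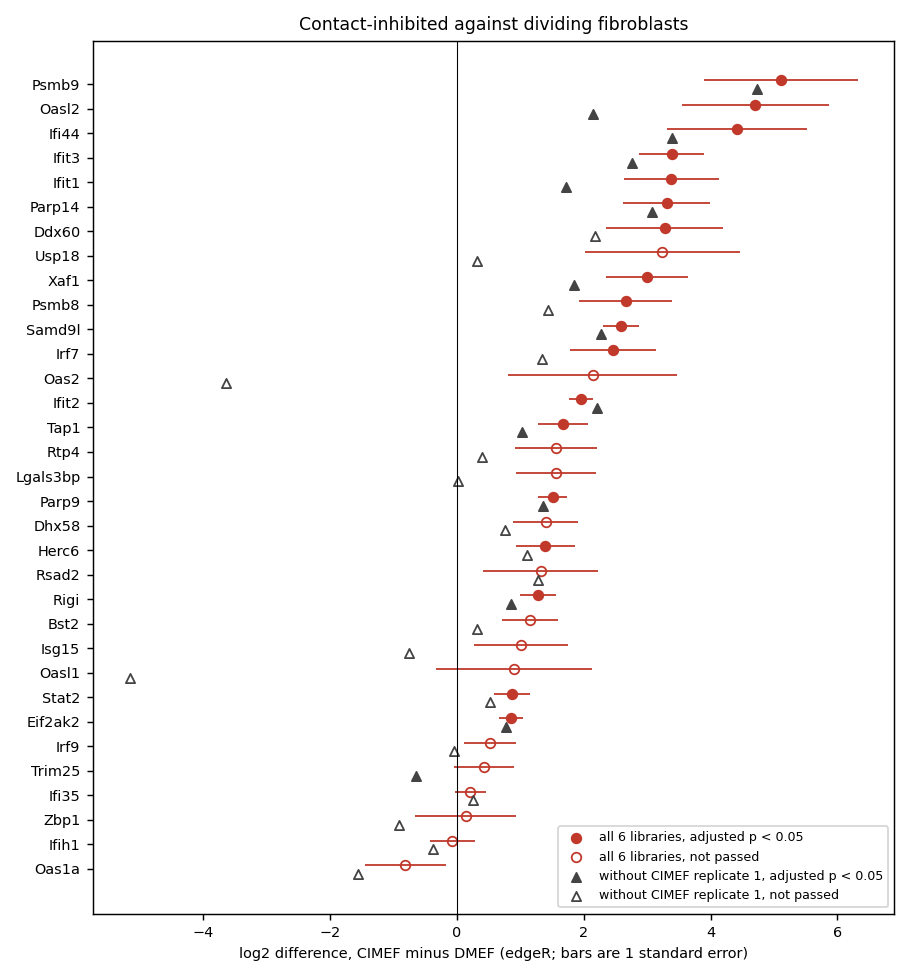
Log2 difference between CIMEF and DMEF for the 33 members tested (red, edgeR estimate from all 6 libraries with 1 standard error) and the same without CIMEF replicate 1 (grey triangles); filled symbols have an adjusted p below 0.05. All filled red points lie to the right of 0, and the triangles of Usp18, Oasl2, Ifit1 and Lgals3bp lie well to the left of their red points; CIMEF replicate 2 has 0 counts of Oas2 and Oasl1, so the position of those 2 triangles has no bound.

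The sensors split between the lines. Rigi, the RIG-I helicase that recognises short viral RNA with a triphosphate end, stood at 62.7 and 34.6 CPM in CIMEF, 22.7 and 17.5 CPM in DMEF, and 88.7 and 89.9 CPM in ESC. The 3 lines did not overlap. Rigi was 2.43-fold higher in CIMEF than in DMEF (log2 1.28, SE 0.29, edgeR adjusted p = 0.0131), and higher in ESC than in DMEF (log2 2.16, SE 0.29, edgeR adjusted p = 0.000659) and CIMEF (log2 0.88, SE 0.28, edgeR adjusted p = 0.0244). Ifih1, the MDA5 helicase that recognises long double-stranded RNA, stood at 18.8 and 11.8 CPM in CIMEF, 21.0 and 11.2 CPM in DMEF, and 0.247 and 0.223 CPM in ESC. The fibroblast lines overlapped in Ifih1 (log2 -0.07, SE 0.36, edgeR adjusted p = 0.893). In ESC, Ifih1 was lower than in either (log2 -6.07, SE 0.50, edgeR adjusted p = 6.31e-05 against DMEF and log2 -6.00, SE 0.50, edgeR adjusted p = 5.17e-05 against CIMEF). The ESC level of Ifih1 was 1.46% of the DMEF mean, within the range of the 6 fibroblast genes named above (1.10% to 2.64%).

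Zbp1, a sensor of Z-form nucleic acid that can start necroptosis, was close to the counting floor in fibroblasts, at 0.149 and 0.0435 CPM in CIMEF and 0.120 and 0.0644 CPM in DMEF, and stood at 3.42 and 4.62 CPM in ESC. It was higher in ESC than in DMEF (log2 5.41, SE 0.58, edgeR adjusted p = 0.00021) and CIMEF (log2 5.27, SE 0.58, edgeR adjusted p = 0.000183). Ddx60, a helicase reported to aid RIG-I, stood at 1.97 and 0.566 CPM in CIMEF, 0.240 and 0.0322 CPM in DMEF, and 0.211 and 0.447 CPM in ESC. It was higher in CIMEF than in DMEF (log2 3.28, SE 0.92, edgeR adjusted p = 0.0285), a call lost without CIMEF replicate 1 (edgeR adjusted p = 0.111). Eif2ak2 encodes PKR, the kinase that stops translation on double-stranded RNA. It ranked CIMEF (88.9 and 74.2 CPM), DMEF (51.8 and 38.6 CPM), ESC (29.1 and 27.8 CPM) with no overlap, and all 3 differences passed (log2 0.85 between the fibroblasts, edgeR adjusted p = 0.0124). Dhx58, which encodes the regulator LGP2, stood between 0.440 and 1.75 CPM and passed in no comparison.

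The transcription factors differed less, apart from Irf7. Stat2 stood at 54.7 and 33.1 CPM in CIMEF, 19.3 and 28.7 CPM in DMEF, and 40.2 and 42.3 CPM in ESC. It was 1.83-fold higher in CIMEF than in DMEF (log2 0.87, SE 0.29, edgeR adjusted p = 0.0468), and this value was lost without CIMEF replicate 1 (edgeR adjusted p = 0.121). Irf9, its DNA-binding partner, overlapped between all lines (14.9 to 42.8 CPM) and passed in no comparison. Irf7, the factor that amplifies interferon production and is itself interferon-induced, stood at 3.83 and 1.09 CPM in CIMEF and 0.440 and 0.451 CPM in DMEF and had 0 counts in both ESC libraries. It was higher in CIMEF than in DMEF (log2 2.46, SE 0.68, edgeR adjusted p = 0.0327), though without CIMEF replicate 1 the adjusted p was 0.0902. Reading 0 over both ESC libraries as 3 counts, Irf7 was at least 8.22-fold higher in DMEF and at least 47.3-fold higher in CIMEF than in ESC.

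The OAS genes, whose enzymes make 2'-5' oligoadenylate on double-stranded RNA, and their OAS-like relatives did not share 1 pattern: Oas1a and Oas2 were higher in ESC and Oasl2 in CIMEF. Oas1a stood at 6.55 and 6.33 CPM in ESC and at 0.0435 to 0.160 CPM in the 4 fibroblast libraries, and Oas2 at 1.69 and 2.20 CPM in ESC and 0 to 0.483 CPM in fibroblasts. Oas1a was higher in ESC than in DMEF (log2 5.44, SE 0.46, edgeR adjusted p = 6.64e-05) and than in CIMEF (log2 6.26, SE 0.50, edgeR adjusted p = 4.11e-05). Oas2 was too, with 107 counts in ESC against 3 in DMEF, a ratio of 36.2 (12.0 to 178), and an edgeR adjusted p of 0.0196 against CIMEF. Oas1a shares sequence with Oas1g, and how reads that fit both were counted is not given in the sources used here. Oasl1 stood at 0.845 and 1.27 CPM in ESC, above all fibroblast libraries (0 to 0.595 CPM), and passed in no comparison. Oasl2, an OAS-like protein with ubiquitin-like domains, was a CIMEF gene, at 7.96 and 0.696 CPM there, 0.200 and 0.129 CPM in DMEF, and 0.141 and 0.223 CPM in ESC. It was higher in CIMEF than in DMEF (log2 4.71, SE 1.16, edgeR adjusted p = 0.0186) and lower in ESC than in CIMEF (log2 -4.55, SE 1.15, edgeR adjusted p = 0.00894). Replicate 1 carried most of that: without it the rise over DMEF was 4.41-fold instead of 26.1-fold (edgeR adjusted p = 0.0399).

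All 3 IFIT genes rose in CIMEF and were lowest in ESC. Their proteins bind viral RNA that lacks the cap methylation of host mRNA, or act on translation. Ifit2 stood at 142 and 189 CPM in CIMEF, 45.0 and 40.1 CPM in DMEF, and 1.59 and 1.82 CPM in ESC. The differences in Ifit2 had the smallest standard errors of the 3 genes: log2 1.96 (SE 0.18, edgeR adjusted p = 0.000877) in CIMEF over DMEF, and log2 -4.64 (SE 0.22, edgeR adjusted p = 5.93e-06) in ESC against DMEF and -6.60 (SE 0.23, edgeR adjusted p = 3.27e-06) against CIMEF. Without CIMEF replicate 1 the first of these was larger, at 4.64-fold instead of 3.88-fold. Ifit1 stood at 51.5 and 9.14 CPM in CIMEF, 2.88 and 2.93 CPM in DMEF, and 0.317 and 0.186 CPM in ESC. The rise of Ifit1 in CIMEF was 10.4-fold (log2 3.38, SE 0.75, edgeR adjusted p = 0.0124), and 3.28-fold without CIMEF replicate 1 (edgeR adjusted p = 0.00243). Ifit3 stood at 11.0 and 4.96 CPM in CIMEF, 0.681 and 0.837 CPM in DMEF, and 0.106 and 0.0372 CPM in ESC. Its rise was 10.5-fold (log2 3.39, SE 0.52, edgeR adjusted p = 0.00352), and 6.76-fold without CIMEF replicate 1. Ifit3 has a near copy, Ifit3b, so its counts may hold reads of both. Against DMEF, ESC were lower in Ifit1 (log2 -3.50, edgeR adjusted p = 0.0143) and Ifit3 (log2 -3.32, edgeR adjusted p = 0.0057). The ESC levels of the 3 genes were 0.829% to 1.03% of the CIMEF means. This lies below the range given above for some fibroblast markers in ESC (1.10% to 2.64%). That range was taken against the mean of both fibroblast lines, so the percentages are not directly comparable. Against the lower DMEF means the ESC levels of the 3 genes were larger shares. The source of these low ESC counts was not tested.

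In the ISG15 system, whose ubiquitin-like tag is attached to newly made proteins, the members parted. Isg15 itself stood at 3.72 and 0.609 CPM in CIMEF, 1.24 and 0.934 CPM in DMEF, and 0.0352 and 0.0372 CPM in ESC. Replicate 1 of CIMEF lay above both DMEF libraries and replicate 2 below them, and the difference did not pass (log2 1.01, SE 0.74, edgeR adjusted p = 0.308). Isg15 had 60 counts in DMEF and 2 in ESC, a ratio of 29.6 (7.84 to 250), and was lower in ESC (edgeR adjusted p = 0.0105, and 0.00291 against CIMEF). Usp18 stood at 5.95 and 0.392 CPM in CIMEF, 0.560 and 0.129 CPM in DMEF and 0 and 0.0372 CPM in ESC. It did not pass between the fibroblasts (log2 3.24, SE 1.23, edgeR adjusted p = 0.073). Against ESC, with 1 count, CIMEF held 169 counts of Usp18, a ratio of 187 (33.2 to 7438; edgeR adjusted p = 0.0089).

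Herc6, the mouse ligase that attaches ISG15, stood at 14.6 and 9.36 CPM in CIMEF, 6.12 and 3.03 CPM in DMEF, and 0.176 and 0.410 CPM in ESC. The lines did not overlap, and the CIMEF rise was log2 1.40 (SE 0.46, edgeR adjusted p = 0.0474; 0.0713 without CIMEF replicate 1). Trim25, a ubiquitin ligase of the RIG-I pathway, was highest in ESC, where Herc6 was lowest: 174 and 173 CPM in ESC, 32.4 and 9.49 CPM in CIMEF, and 16.2 and 15.0 CPM in DMEF. The 2 CIMEF libraries lay on either side of DMEF. Trim25 was 11.1-fold higher in ESC than in DMEF (log2 3.48, SE 0.51, edgeR adjusted p = 0.000972) and also higher than in CIMEF (log2 3.05, SE 0.50, edgeR adjusted p = 0.00128).

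Among the other antiviral effectors Samd9l, a restriction factor that blocks translation of poxviruses, differed most firmly between the fibroblasts. It stood at 66.2 and 41.1 CPM in CIMEF, 9.29 and 8.57 CPM in DMEF, and 4.30 and 5.66 CPM in ESC. The CIMEF rise was 6.01-fold (log2 2.59, SE 0.28, edgeR adjusted p = 0.0013) and 4.81-fold without CIMEF replicate 1. Bst2, or tetherin, which holds budding virus on the cell surface, stood at 17.8 and 6.53 CPM in CIMEF, 5.00 and 5.96 CPM in DMEF, and 20.9 and 19.2 CPM in ESC. Bst2 was higher in ESC than in DMEF (log2 1.87, SE 0.44, edgeR adjusted p = 0.00881), and between the fibroblasts it did not pass (edgeR adjusted p = 0.074). Rsad2 (viperin) and its neighbour Cmpk2, which act together on a chain-terminating nucleotide, stayed below 1 CPM in every library. Rsad2 had 35 counts in ESC against 3 in DMEF, a ratio of 11.8 (3.73 to 60.1; edgeR adjusted p = 0.00478). Cmpk2 had 22 counts in ESC, 8 in CIMEF and 1 in DMEF and was not tested. The 83 counts of Mx2 in CIMEF compare with 2 in DMEF, a ratio of 46.6 (12.5 to 391), and 80 of them came from replicate 1. All 38 CIMEF counts of Mx1 came from replicate 1.

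The 2 PARP genes, whose proteins read or attach ADP-ribose in the interferon response, rose in CIMEF in both libraries. Parp9 stood at 24.7 and 18.7 CPM in CIMEF, 7.45 and 7.79 CPM in DMEF, and 12.5 and 10.9 CPM in ESC. Its lines did not overlap. Parp9 rose 2.85-fold (log2 1.51, SE 0.22, edgeR adjusted p = 0.00327), and 2.57-fold without CIMEF replicate 1. Parp14 stood at 4.94 and 3.26 CPM in CIMEF, 0.721 and 0.129 CPM in DMEF, and 1.83 and 1.90 CPM in ESC, a rise of log2 3.31 (SE 0.68, edgeR adjusted p = 0.00978) in CIMEF and 2.17 in ESC (SE 0.68, edgeR adjusted p = 0.0275) over DMEF.

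All 3 antigen processing genes were called higher in CIMEF, beside 19.5% of all genes tested. Psmb8 and Psmb9 had few counts outside CIMEF and passed the low-count filter through that line. Tap1, a subunit of the transporter that carries peptides into the endoplasmic reticulum, stood at 21.8 and 9.62 CPM in CIMEF, 4.84 and 5.02 CPM in DMEF, and 1.13 and 1.27 CPM in ESC. The rise of Tap1 was 3.19-fold (log2 1.67, SE 0.40, edgeR adjusted p = 0.0163; 2.04-fold without CIMEF replicate 1), and ESC were lower than DMEF (log2 -2.04, SE 0.43, edgeR adjusted p = 0.00517). Psmb9, an inducible catalytic subunit of the immunoproteasome that shares its promoter region with Tap1, stood at 0.967 and 0.566 CPM in CIMEF, 0 and 0.0322 CPM in DMEF, and 0.211 and 0 CPM in ESC. Its 39 counts in CIMEF against 1 in DMEF gave a ratio of 43.8 (7.41 to 1774; edgeR adjusted p = 0.0158). Psmb8, another inducible subunit, stood at 3.01 and 0.784 CPM in CIMEF, 0.200 and 0.386 CPM in DMEF, and 0.176 and 0.0745 CPM in ESC. The difference was log2 2.66 (SE 0.74, edgeR adjusted p = 0.0277) and lost its call without CIMEF replicate 1 (edgeR adjusted p = 0.123).

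The constitutive proteasome subunits that Psmb8 and Psmb9 replace fell in CIMEF. Psmb5 stood at 5.99 and 6.49 CPM there and at 14.7 and 14.8 CPM in DMEF (log2 -1.25, edgeR adjusted p = 0.00371), and Psmb6 at 43.3 and 45.7 CPM against 82.2 and 99.0 CPM (log2 -1.03, edgeR adjusted p = 0.00295). Psmb7 was lower as well (log2 -1.34, edgeR adjusted p = 0.00186), while its inducible counterpart Psmb10 did not pass (log2 -0.24, edgeR adjusted p = 0.419). All 3 constitutive subunits had close values in the 2 CIMEF libraries, unlike Psmb8. Psmb10 was higher in ESC than in DMEF (log2 1.54, edgeR adjusted p = 0.000884), where Psmb8 and Psmb9 did not pass.

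Of the 5 further genes, 2 rose in CIMEF. Ifi44, a gene of unsettled function, stood at 6.28 and 1.87 CPM in CIMEF, 0.400 and 0 CPM in DMEF, and 0.0352 and 0.0372 CPM in ESC, a rise of log2 4.42 (SE 1.10, edgeR adjusted p = 0.019; 3.39 without CIMEF replicate 1). Xaf1, a pro-apoptotic antagonist of XIAP, stood at 4.76 and 1.31 CPM in CIMEF, 0.440 and 0.322 CPM in DMEF, and 12.8 and 10.8 CPM in ESC. Its 3 lines did not overlap. Xaf1 rose 7.98-fold in CIMEF (log2 3.00, SE 0.65, edgeR adjusted p = 0.0117; 3.60-fold without CIMEF replicate 1) and was higher still in ESC (log2 4.94, SE 0.67, edgeR adjusted p = 0.000644 against DMEF).

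Lgals3bp, a secreted glycoprotein that binds galectins, stood at 63.5 and 12.4 CPM in CIMEF, 13.0 and 12.7 CPM in DMEF, and 0.599 and 0.596 CPM in ESC. Its second CIMEF library lay just below both DMEF libraries, and the fibroblast difference did not pass (log2 1.56, SE 0.64, edgeR adjusted p = 0.0895; 0.01 without CIMEF replicate 1). Rtp4, a receptor chaperone, also did not pass, at 7.06 and 1.92 CPM in CIMEF and 1.28 and 1.74 CPM in DMEF (edgeR adjusted p = 0.092). Both were lower in ESC than in DMEF, Lgals3bp by log2 -4.42 (SE 0.80, edgeR adjusted p = 0.00255) and Rtp4 with 1 count against 86, a ratio of 84.8 (14.8 to 3388; edgeR adjusted p = 0.00284). Ifi35, a partner of the protein Nmi, was level at 5.84 to 9.07 CPM and passed in no comparison.

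Stem cells did not have a uniformly low level of these genes. Against DMEF, 11 of the 33 members tested were higher in ESC, where 30.3% of all genes tested were, and 12 were lower, where 30.5% were. Against CIMEF, 7 were higher (38.2% of all genes) and 18 lower (37.7%), with a median log2 difference of -1.95 beside 0.064 for all genes. These 2 comparisons share the ESC libraries. Oas1a, Zbp1, Rsad2 and Oas2, called higher in ESC in both, had few counts in fibroblasts. They passed the low-count filter through ESC, as the members named earlier did through CIMEF. In both ESC libraries, 10 of the 36 genes were above all 4 fibroblast libraries: Rigi, Zbp1, Oas1a, Oas2, Oasl1, Trim25, Bst2, Rsad2, Cmpk2 and Xaf1 (37.8% of all genes tested). For 15 both were below all 4 (34.4%), among them the 3 IFIT genes, Isg15, Usp18, Herc6, Irf7, Ifih1, Rtp4 and Lgals3bp. The shares called against DMEF lie near those of all genes, while single members ranged from Irf7 at 0 counts in ESC to Oas1a at 43.6-fold above DMEF.

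Single libraries moved these counts too. Leaving out a DMEF library left 7 members higher in ESC than in DMEF in either case (24.1% of all genes without replicate 1, 25.3% without replicate 2), with Bst2, Oas2 and Parp9 lost in both, Stat2 without replicate 1 and Parp14 without replicate 2. Without either ESC library Parp9, Parp14 and Stat2 were not called higher and Eif2ak2 and Samd9l not lower, and without ESC replicate 1 Rsad2 was not called higher. Without DMEF replicate 1, 7 were lower (23.5% of all genes), with Eif2ak2, Ifit1, Irf7, Isg15 and Samd9l lost, and without DMEF replicate 2 Ifit1, Irf7 and Samd9l were. Against CIMEF, Psmb9 was not called lower without CIMEF replicate 1, either DMEF library or ESC replicate 2, Rsad2 not higher without either CIMEF library, and Oas2 not higher without either DMEF library. Also against CIMEF, Rigi lost its call without either ESC library, and without ESC replicate 1 Rsad2 and Xaf1 did too, which left 4 higher (27.8% of all genes); without ESC replicate 2 Oas2 lost it as well. Scaling to library totals moved the median of all genes by 0.35 in log2 between ESC and DMEF, and Eif2ak2 and Samd9l were then no longer called lower.

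**Figure D4:**
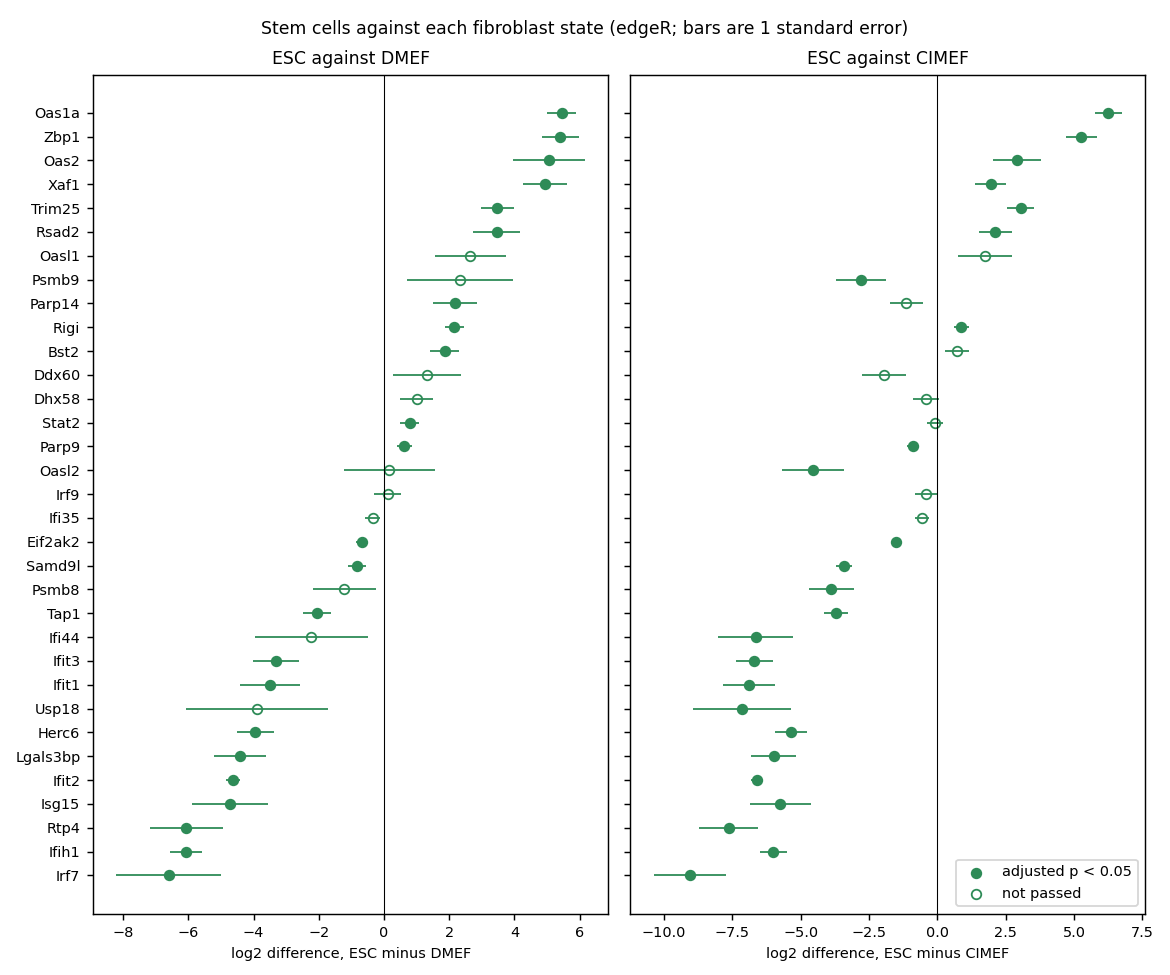
Log2 difference of ESC against DMEF (left) and against CIMEF (right) for the 33 members tested, ordered by the left panel, with 1 standard error; filled points have an edgeR adjusted p below 0.05. Oas1a, Zbp1, Trim25 and Xaf1 lie to the right of 0 in both panels and the IFIT genes, Isg15 and Irf7 to the left in both, and the panels share the ESC libraries.

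The other genes of the pathway, 150 on 7 lists, were read by the same test. For the interferons, 21 ligand genes, 1 count was found in all (of Ifnz, in DMEF replicate 1), and Ifnb1 had 0 counts in each library, which allows up to 0.0966 to 0.131 CPM. Of the 9 receptors and kinases, Jak2 was higher in CIMEF than in DMEF (log2 0.88, edgeR adjusted p = 0.0136) and Jak1 lower (log2 -0.55, edgeR adjusted p = 0.0142), beside 19.5% and 21.1% of all genes tested. Ifnar1 stood at 141 and 127 CPM in CIMEF, 125 and 129 CPM in DMEF, and 61.0 and 55.4 CPM in ESC. Ifnar2 stood at 29.1 and 27.1 CPM in CIMEF, 21.6 and 31.0 CPM in DMEF, and 3.21 and 4.21 CPM in ESC. In ESC 7 of the 9 were lower than in DMEF, beside 30.5% of all genes, Ifnar1 by log2 -1.13 (edgeR adjusted p = 0.000341), Ifnar2 by -2.83 (edgeR adjusted p = 0.0001) and Jak1 by -3.22 (edgeR adjusted p = 4.51e-06), and Tyk2 was 1 of the 2 that were higher (log2 1.34, edgeR adjusted p = 0.00554). The interferon gamma receptor genes Ifngr1 (log2 -4.22) and Ifngr2 (log2 -3.76) and the shared cytokine receptor gene Il10rb (log2 -4.81) had the largest of these falls. Jak2 lost its call without DMEF replicate 2 (edgeR adjusted p = 0.0532) and Jak1 without either ESC library (0.0784 and 0.0757).

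Irf3, the factor that starts interferon beta transcription, was level between the fibroblasts (18.5 to 22.1 CPM, log2 0.04, edgeR adjusted p = 0.886). Of the other transcriptional regulators, Irf2bp2 was higher in CIMEF than in DMEF (log2 1.05) and Irf5 fell (log2 -2.13), which was lost without either DMEF library (edgeR adjusted p = 0.0759 and 0.0682). In ESC, Irf2, a repressor of ISRE genes, was lower than in DMEF (log2 -5.93, edgeR adjusted p = 8.18e-06).

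Among 56 other interferon-stimulated genes, 44 were tested, 21 were higher in CIMEF than in DMEF and 4 were lower, beside 19.5% and 21.1% of all genes tested, with a median log2 difference of 0.66. Ifit3b (log2 3.26), Uba7, the ISG15-activating enzyme (log2 3.23), and Slfn8 (log2 3.20) rose most. Without CIMEF replicate 1, 18 of 44 were higher (20.3% of all genes in that fit) and 5 lower (19.3%). Without DMEF replicate 1, 12 of 48 were higher (13.8% of all genes), and without DMEF replicate 2, 5 of 48 (8.27%). Ifit3b and Uba7 lost their calls without either DMEF library and Slfn8 without replicate 2. Of these 56 genes 13 were over 2-fold higher in CIMEF replicate 1 than in replicate 2 (5.47% of all genes tested) and 0 were lower (2.65%). In ESC, 13 of 44 were higher than in DMEF, a share near the 30.3% of all genes, and 21 were lower, beside 30.5%. Oas1g, a close relative of Oas1a, had 73 counts in ESC against 0 in DMEF, at least 24.7-fold higher. Ifitm1, a membrane protein that blocks viral fusion, was higher in ESC (log2 6.96, edgeR adjusted p = 3.72e-06), and Csf1, a macrophage growth factor, was lower (log2 -7.03, edgeR adjusted p = 4.03e-06).

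The list of MHC and proteasome genes (18) gave 6 higher and 6 lower in CIMEF, beside 19.5% and 21.1% of all genes tested. H2-Q4 (log2 2.19), H2-T23 (log2 2.18) and Tap2, the partner of Tap1 in the peptide transporter (log2 1.87), rose, the last 2 not without DMEF replicate 2. In ESC, B2m, the light chain of class I molecules, stood at 19.6 and 22.3 CPM against 417 and 487 CPM in DMEF (log2 -4.43, edgeR adjusted p = 1.47e-05). H2-T23 and Tap2 were also lower there. Among 25 sensing and signalling genes, 23 were tested, with 5 higher and 5 lower in CIMEF, both near those shares. Nod1 (log2 2.47) and Tlr4 (log2 1.53) rose, but Tlr4 lost its call without DMEF replicate 2. In ESC, Aim2, a sensor of cytosolic DNA, stood at 55.6 and 55.1 CPM against 0.258 and 0.600 CPM in DMEF (log2 7.04, edgeR adjusted p = 9.49e-06), and Nod2 was higher (log2 5.44). Of 11 negative regulators, 2 were higher in CIMEF, also near the share of all genes, and 4 lower. Tnfaip3, the inhibitor A20, stood at 5.24 and 8.36 CPM in CIMEF and 61.4 and 42.1 CPM in DMEF (log2 -2.93, edgeR adjusted p = 0.00111). Trim24 (log2 1.30) and Rnf125 (log2 1.09) rose, Trim24 not without DMEF replicate 2 and Rnf125 not without either DMEF or either ESC library. In ESC, Ptpn6 (log2 5.22) was higher than in DMEF and Tnfaip3 (log2 -4.78) was lower.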

How the data were processed

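Of 105 samples, the poly(A) RNA libraries were analysed (6, with 2 each of CIMEF, DMEF and ESC). The authors deposited 1 table of raw read counts per gene. Per the submitters' processing notes, reads were handled with cutadapt, STAR 2.4 and HTSeq 0.9.1 on mm10/GRCm38, and per the labels' protocols they were 40 nt, single-end and from a directional kit. The strand setting, annotation release and treatment of multi-mapping reads are not given in the sources used here, so genes that overlap another locus (Ifit1, Parp9, Stat2, Rtp4, Eif2ak2) or have near copies (Ifit3, Oas1a) may share reads. No transcript lengths were used, so levels are not compared between genes.

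Counts were scaled by TMM and tested with edgeR 4.0.16 (R 4.3.3), quasi-likelihood, filterByExpr, 1 fit over the 3 lines, Benjamini-Hochberg over 18094 genes, threshold 0.05. The fit was checked on simulated data with the same dispersion for every gene and line. That check does not cover the spread between the CIMEF libraries. Alternatives were other scalings, filters, DESeq2 1.42.0, limma-voom (limma 3.58.1), 4 libraries only, a replicate block and leaving out each library, where the lone library of a line is assumed to vary like the other lines. A count of 0 was read as 3 counts over a line (over a library, between replicates), and ratios of few counts have 95% exact counting intervals. Named genes were the members that passed, up to 10 per comparison by size, the member of each role with the highest mean CPM (a rule of choice only) and, of each other list, up to 3 per comparison. Other members' values complete the list. The members, lists and rules were chosen with earlier results of these data known. The small RNA tables were not used. A few results of the wider pathway are not reported here.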

Additional observations from a re-analysis of the deposited data

How the results depend on the processing

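The 18 members higher in CIMEF than in DMEF were also called with RLE, upper-quartile and library-total scaling (18, 18 and 20 calls) and with DESeq2 (22). The stricter filter (CPM of at least 1 in 2 libraries) left 13 calls among 26 members tested, and no filter gave 26 among 36. Limma-voom gave 15 among 33, and the 4 fibroblast libraries alone 17 among 28. The members tested differ, so these counts are not directly comparable, and the shares of all genes called in these settings are not given here. Leaving out 1 library gave 6 to 30 higher and 0 to 1 lower in CIMEF against DMEF, 7 to 13 higher and 7 to 13 lower in ESC against DMEF, and 4 to 8 higher and 17 to 23 lower in ESC against CIMEF. These fits test more genes, since the filter then asks for 1 library. Library totals shifted the all-gene median by 0.18, 0.35 and 0.17 in log2 in the 3 comparisons, and the upper quartile by 0.06, 0.27 and 0.22.

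No source used here says that replicates of the same number belong together across lines. Differences between replicates correlated at 0.05 between CIMEF and DMEF, -0.0016 between CIMEF and ESC and -0.019 between DMEF and ESC. Such values over all genes cannot tell whether replicates of the same number shared a batch. With a replicate block, 18 of the 33 members tested were higher in CIMEF than in DMEF (17 shared, Stat2 lost, Usp18 gained). Of the same 33, ESC had 9 higher and 13 lower against DMEF and 7 and 18 against CIMEF.

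Signs that turned belonged to differences that had not passed. Ifih1 in CIMEF against DMEF was 0.12 with library totals. Stat2 in ESC against CIMEF was 0.13 with the upper quartile and 0.079 with library totals. Oasl1 in CIMEF against DMEF was -0.31 with limma-voom. Leaving out 1 library gave log2 ranges that crossed 0 in CIMEF against DMEF for Ifih1 (-0.43 to 0.47), Zbp1 (-0.91 to 0.70), Irf9 (-0.045 to 1.12), Oas2 (-3.64 to 3.06), Oasl1 (-5.16 to 2.20), Isg15 (-0.76 to 1.78), Trim25 (-0.65 to 1.05), Ifnar2 (-0.12 to 0.41) and Irf3 (-0.033 to 0.16). They did so in ESC against DMEF for Irf9 (-0.25 to 0.73), Oasl2 (-0.19 to 0.52), Psmb9 (-2.23 to 4.57) and Ifi44 (-3.26 to 3.16), and in ESC against CIMEF for Dhx58 (-0.87 to 0.22), Stat2 (-0.42 to 0.24) and Irf9 (-0.86 to 0.14). The cause was not tested. With 2 libraries a line and under 1 CPM, many members rest on few counts.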
